A study of Mus musculus with 4 samples.

Results

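The cells described here are kidney macrophages that carry transcripts of complement C1q together with those of the chemokines Ccl8, Ccl12 and Pf4 or of the mannose receptor Mrc1. They were chosen on raw counts of unique molecular identifiers (UMIs), each of which stands for 1 captured mRNA molecule. A barcode passed the gate with at least 20 UMIs of C1qa, C1qb and C1qc together, at least 3 of Pf4, Ccl8, Ccl12 and Mrc1 together, at most 1 of the T cell genes Cd3d, Cd3e and Cd3g, and at most 1 of the B cell gene Cd79a. Of 31041 kept barcodes, each with at least 500 UMIs, at least 200 genes and at most 50% mitochondrial UMIs, 3058 passed, or 9.85%. Another 2535 barcodes met the C1q, T cell and B cell limits but held fewer than 3 UMIs of the other 4 transcripts, and are called ungated cells. Gated and ungated cells together are called C1q-high cells.

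The study compared trnE mutant mice with wild-type mice by droplet 3′ RNA sequencing of live-sorted kidney cells, with 2 libraries a group. The mutants carry a point mutation in trnE, which encodes the mitochondrial tRNA that carries glutamate, at labelled mutation loads of 79% in mutant 1 and 76% in mutant 2. The wild-type mice have no load in the labels, and the series text names the C57BL/6J strain. The labels state neither ages nor sexes nor litters, and a point mutation leaves no mark in counts per gene, so the genotype labels were not checked from these data. The deposited file of wild type 1 is named in the style of a mutant's, and that of mutant 1 carries a number other than its labelled load. Groups here follow the labels.

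C1q is the recognition part of the classical complement pathway, and tissue macrophages are a main source of it. Ccl8, Ccl12, Ccl2 and Ccl7 are chemokines that draw monocytes and other leukocytes to a tissue. Pf4 is a chemokine best known from platelets that some tissue macrophages also make, and Mrc1, or CD206, is an endocytic receptor for sugars ending in mannose. In the kidney, resident macrophages lie between the tubules and along the vessels, where they take up debris and present antigen.

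The libraries were deep in these cells, except for wild type 2. The gated cells numbered 1622 in mutant 1 and 1112 in mutant 2, against 285 in wild type 1 and 39 in wild type 2. Their summed UMIs were 12784930 and 10443511 in the mutants, against 2523523 and 362131 in the wild types. Median UMIs per gated cell were 6872.5 and 8621.5 in the mutants, against 7819 and 7730 in the wild types. A count of 3 UMIs in the sum, the limit that a count of 0 allows, is 8.28 CPM in wild type 2 (CPM are UMIs divided by the summed UMIs and put on 1 scale for all libraries), against 0.235 to 1.19 CPM in the other 3 libraries. Of the 39 cells of wild type 2, a gene seen in none may still have a UMI in up to 7.69% of such cells. These limits cover counting error only. No barcode of a gated cell was shared between libraries, while 14 to 26 barcodes were shared between pairs of libraries among all barcodes.

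Markers that the gate did not use were present in the gated cells of every library. Of 11 macrophage markers examined, 3 are the C1q genes that the gate required. The other 8, among them Adgre1, Csf1r, Mertk and Apoe, each had a UMI in at least 10% of gated cells in each of the 4 libraries. The summed level of these 8 was 15968 and 19975 CPM in the mutants, against 9926 and 12012 CPM in the wild types. Of 10 markers of perivascular or Lyve1-type macrophages, 2 reached that share in each mutant, against 3 in each wild type. Lyve1, the hyaluronan receptor of that type, had a UMI in 2 of 1622 and 2 of 1112 gated cells of the mutants, and in 0 of 285 and 0 of 39 of the wild types. Other markers of that list, F13a1, Cd163, Cbr2, Gas6 and Stab1, were higher in gated than in ungated cells of every library. Lyve1, Folr2, Timd4, Cd209f and Fcna were not higher in every library. The label names Ccl8 first, but of the 4 gate transcripts Ccl8 had a UMI in the fewest gated cells of each library, so the cells are called gated macrophages here. By summed UMIs Ccl8 was the lowest of the 4 in wild type 1 only.

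RNA known from other cell types was also present, with the proximal tubule first. The 7 proximal tubule markers summed to 1380 and 544 CPM in gated cells of the mutants, against 903 and 1781 CPM in the wild types, and all 7 had a UMI in at least 10% of the cells of wild type 2. These sums exceed the level of Pf4, a gate gene, in each library. The 5 B cell markers summed to 346 and 355 CPM in the mutants, against 279 and 630 CPM in the wild types. The 3 plasma cell markers summed to 163 and 192 CPM in the mutants, against 102 and 715 CPM in the wild types. Wild type 2 was the highest library for each of these 3 lists. The 7 T cell markers summed to 27.0 and 55.4 CPM in the mutants, against 23.8 and 71.8 CPM in the wild types, with Cd3e, Cd3g and Cd8a at 0 in wild type 2. Kap, an abundant tubule transcript, stood at 419 in wild type 2, against 4.33 to 20.1 in the other 3 libraries, on the TMM-scaled CPM of the tests below. The part of this RNA in the differences given below was not tested. The doublet caller Scrublet marked 48 and 18 gated cells in the mutants, against 6 and 1 in the wild types.

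Gated macrophages took a larger share of the mutant libraries. They made up 16.6% of kept barcodes in mutant 1 (95% exact Clopper-Pearson interval 15.9 to 17.3%) and 12.3% in mutant 2 (11.6 to 12.95%). The shares in the wild types were 4.94% in wild type 1 (4.40 to 5.53%) and 0.607% in wild type 2 (0.432 to 0.828%). The groups did not overlap, and the mean was 14.4 ± 3.07% in mutants and 2.77 ± 3.06% in wild types (SD, n = 2 each). The difference of 11.7 percentage points gave p = 0.3333 in a two-sided exact permutation test, the smallest that 2 libraries against 2 allow. After each barcode was thinned to 2000 UMIs, with the gate lowered to 10 and 2 UMIs, the shares were 15.0% and 8.73% in the mutants, against 3.21% and 0.420% in the wild types. That count held the 8001 and 8249 mutant barcodes and the 5236 and 5232 wild-type barcodes with at least 2000 UMIs. A share of sorted cells also moves with the number of other cells recovered, and the 2 cannot be told apart here.

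Within the C1q-high cells the gated share did not separate the genotypes. It was 55.7% and 64.1% in the mutants, against 32.0% and 66.1% in the wild types. The value of wild type 2 rests on 59 cells, and its exact interval runs from 52.6 to 77.9%. Group means were 59.9 ± 5.93% in mutants and 49.1 ± 24.1% in wild types (SD, n = 2 each; two-sided exact permutation p = 1). Without wild type 1 the difference turned from 10.9 to -6.17 percentage points. The plot of shares per library shows both denominators.

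**Figure D1:**
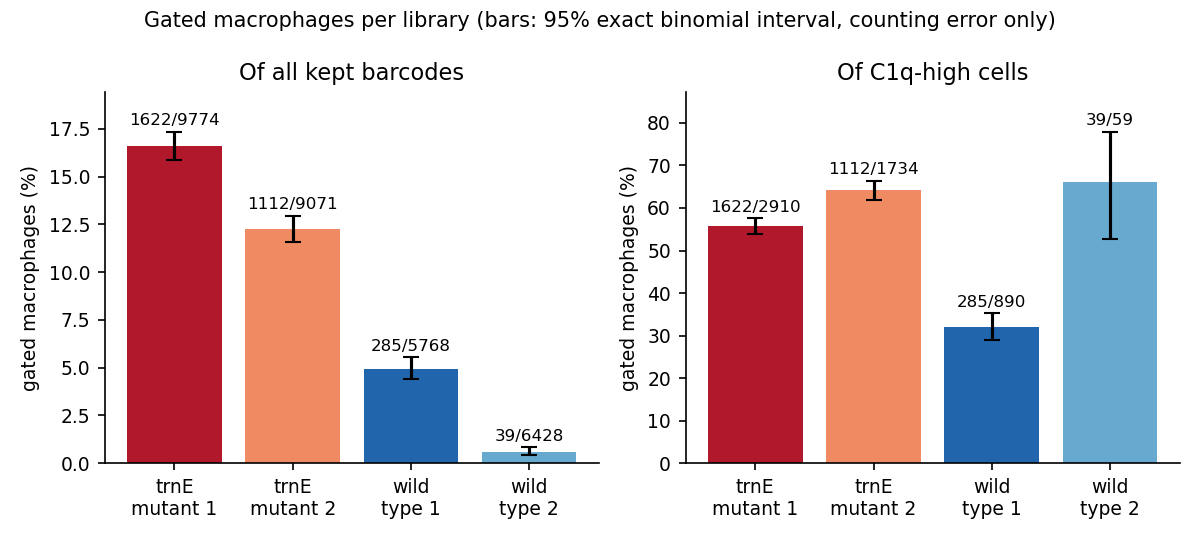
Gated macrophages as a percentage of all kept barcodes (left) and of C1q-high cells (right) in each library, with the counts above each bar and 95% exact binomial intervals, which cover counting error only. On the left both mutants, at 16.6% and 12.3%, stand above both wild types, at 4.94% and 0.607%. On the right wild type 2, with 39 of 59 cells, reaches the level of the mutants.

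The edge of the gate was well filled. Exactly 3 UMIs of the 4 transcripts were found in 211 and 138 gated cells of the mutants, against 65 and 7 of the wild types. Just outside, 275 and 198 C1q-high cells of the mutants held exactly 2, against 123 and 6 of the wild types. Gated cells had a median of 9 such UMIs in each mutant, against 6 in wild type 1 and 8 in wild type 2. Ungated cells were shallower than gated cells in 3 libraries, with median UMIs of 5077 and 7142 in the mutants and 5592 in wild type 1, while those of wild type 2 had a median of 8150.

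The 4 gate transcripts differed in how widely they were spread over the gated cells. Mrc1 was the most widespread, with a UMI in 83.3% and 88.4% of gated cells in the mutants and 87.0% in wild type 1, and in 38 of 39 cells in wild type 2. Ccl12 had a UMI in 73.2% and 52.4% of gated cells in the mutants, against 43.2% in wild type 1 and 18 of 39 cells in wild type 2. Pf4 had a UMI in 57.6% and 59.4% of gated cells in the mutants, against 51.2% and 53.8% in the wild types. Ccl8 was in the fewest cells, with a UMI in 25.2% and 32.9% of gated cells in the mutants, against 11.6% and 17.9% in the wild types. T cell barcodes, which should lack these genes, were taken with Cd3 transcripts, few C1q UMIs and at least 2000 UMIs. The limit on C1q left out barcodes rich in macrophage RNA, so the background given here is a low estimate. Before these limits, 5.12% and 2.26% of Cd3 barcodes in the mutants reached 20 C1q UMIs, against 2.43% and 0.332% in the wild types. In the T cell barcodes so chosen, each of the 4 had a UMI in at most 2.72% of cells. Those barcodes were shallower in 3 libraries, with medians of 3893 and 5333 UMIs in the mutants and 4874 in wild type 1, against 7677.5 in wild type 2. Expected after thinning to 2000 UMIs, the highest share in T cell barcodes was 1.01%, for Ccl12 in mutant 1, where 50.6% was expected in gated cells. These shares are a description, because the gate was set on these genes.

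Ccl8 was carried by few cells. The tenth of gated cells with the most Ccl8 held 92.7% and 86.2% of its UMIs in the mutants, against 98.2% and 94.9% in the wild types. The same share for Mrc1 was 35.6% and 35.0% in the mutants, against 35.3% and 33.0% in the wild types. Ccl8 summed to 583 and 643 CPM in gated cells of the mutants, against 88.4 CPM in wild type 1 and 1406 CPM in wild type 2. The groups overlapped, with wild type 1 lowest and wild type 2 highest. In wild type 2 a single cell held 395 of the 509 Ccl8 UMIs, or 77.6%. With the richest cell of each library left out, a step chosen after seeing the data, Ccl8 stood at 532 and 614 CPM in the mutants, against 73.4 and 333 CPM in the wild types, and the groups no longer overlapped.

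Ccl12 summed to 1287 and 738 CPM in gated cells of the mutants, against 388 and 453 CPM in the wild types. Pf4 summed to 505 and 361 CPM in the mutants, against 220 and 215 CPM in the wild types. For both chemokines each mutant stood above each wild type, an order that 23.9% of all genes tested in gated cells also had. Ccl12 and Pf4, like Ccl8 and Mrc1, were used to choose these cells. Their levels here are thus a description, and no effect of genotype is read from them. Mrc1 summed to 427 and 508 CPM in the mutants, against 476 and 643 CPM in the wild types, and the groups overlapped.

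Ccl8 and Ccl12 are neighbours on chromosome 11 of the mouse, in a row of chemokine genes that also holds Ccl2 and Ccl7. In GENCODE M21, on GRCm38 (mm10), Ccl2 (ENSMUSG00000035385) spans chr11:82035571-82037453 and Ccl7 (ENSMUSG00000035373) chr11:82045712-82047525. Ccl12 (ENSMUSG00000035352) spans chr11:82101845-82103400 and Ccl8 (ENSMUSG00000009185) chr11:82115185-82116799, all on the plus strand. The 80 bases before each start are shown because both are gate genes and neighbours, with the letters TATAAA in capitals (RefSeq, build GRCm38.p6, plus strand, chr11:82115105-82115184 for Ccl8 and chr11:82101765-82101844 for Ccl12).
Ccl8: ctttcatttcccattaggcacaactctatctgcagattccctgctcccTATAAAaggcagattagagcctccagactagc
Ccl12: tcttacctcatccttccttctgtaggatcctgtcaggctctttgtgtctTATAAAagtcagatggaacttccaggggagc

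The letters TATAAA start at position -32 of Ccl8 and -31 of Ccl12, counted from the gene's start. They occur on either strand of the 250 bases before the start in 12.4% of 32851 promoters. A match of letters describes the sequence and shows no binding.

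To see these genes in cells that were not chosen by them, the sums were taken over all C1q-high cells, 2910 and 1734 in the mutants against 890 and 59 in the wild types. Levels in this test are CPM scaled with edgeR's TMM factors. Ccl12 stood at 999 and 535 scaled CPM in the mutants, against 160 and 225 in the wild types. Pf4 stood at 391 and 263 scaled CPM in the mutants, against 92.6 and 107 in the wild types. Both mutants exceeded both wild types for each gene, as did 22.7% of all genes tested in these cells. The log2 fold change of mutant over wild type was 2.00 for Ccl12 (SE 0.50) and 1.72 for Pf4 (SE 0.41), and neither passed the quasi-likelihood test of edgeR, with p adjusted after Benjamini and Hochberg (adjusted p = 0.821 each). Mrc1 also did not overlap on this scale, at 358 and 393 scaled CPM in the mutants, against 232 and 338 in the wild types (log2 fold change 0.40, SE 0.42, edgeR adjusted p = 0.844). The TMM factors were 0.947 for mutant 2 and 1.31 for wild type 2, and without them wild type 2 stood above both mutants. Over 14 alternatives the log2 fold change of Mrc1 ranged from -0.008 to 0.70.

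For Ccl8, wild type 2 decided the result. It stood at 446 and 462 scaled CPM in the mutants, against 35.1 in wild type 1 and 692 in wild type 2. The fitted log2 fold change was 0.34 (SE 0.92, edgeR adjusted p = 0.948). Without wild type 2 it was 3.70, without wild type 1 it was -0.55, and with library totals in place of TMM it was -0.21. Without the Ccl8-richest barcode of each library it was 2.23 (edgeR adjusted p = 0.837). Over the 14 alternatives run, the log2 fold change of Ccl8 ranged from -0.55 to 3.70.

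Across all 13326 genes tested in C1q-high cells, 1 gene passed the threshold of 0.05, or 0.0075%, with 479 at an unadjusted p under 0.05 and 18 calls by DESeq2. It was Gzma, a granzyme of killer lymphocytes, which fell to 7.09 and 6.79 scaled CPM in the mutants, against 72.3 and 82.8 in the wild types (log2 fold change -3.47, edgeR adjusted p = 0.00908). It is no macrophage gene, and the call was lost when barcodes marked by Scrublet were removed (log2 fold change -6.33, edgeR adjusted p = 0.141, against a lowest value of 1.21e-15 over its 14 alternatives). In gated cells alone Gzma stood at 10.9 and 1.79 scaled CPM in the mutants, against 0.393 and 0 in the wild types. The value of mutant 2 and both wild-type values lie under the 8.28 CPM that a count of 0 allows in wild type 2, so no order is read from them.

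In the gated macrophages themselves 0 of 12383 genes passed edgeR's test (0% called), with 671 at an unadjusted p under 0.05 and 7 calls by DESeq2. The genes with the smallest p among those of at least 30 CPM, with groups that did not overlap, are given as values. Those higher in mutants were Ccl7, Fcrls, Socs3, Olfml3 and Ccl2, and those lower were Kctd16, Ahnak, Arhgap26, Gpr141 and Slc27a2. In all, both mutants exceeded both wild types for 23.9% of genes, and both lay below for 21.8%.

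Ccl7, a monocyte-drawing chemokine, stood at 239 and 110 scaled CPM in gated cells of the mutants, against 5.11 and 15.7 in the wild types. The fitted log2 fold change was 4.52 (SE 0.59, edgeR adjusted p = 0.0622). It came from 300 of 1622 and 179 of 1112 cells in the mutants, against 4 of 285 and 6 of 39 cells in the wild types. As a share of gated cells this was 18.5% and 16.1% in the mutants, against 1.404% and 15.4% in the wild types, so wild type 2 lay close to the mutants in that measure. Over thinning to 2000 UMIs the expected shares were 10.5% and 7.16% in the mutants, against 0.563% and 3.06% in the wild types. In the T cell barcodes chosen for few C1q UMIs, Ccl7 had a UMI in at most 0.514% of cells. DESeq2 called Ccl7 (adjusted p = 7.28e-10). With each library left out in turn its log2 fold change ran from 3.54 to 5.09. Those fits leave a lone library in a group, so no call is read from them. Over all 17 alternatives its adjusted p reached 0.273, with the replicate block.

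Ccl2, the main monocyte-drawing chemokine of the row, stood at 282 and 141 scaled CPM in the mutants, against 19.7 and 82.9 in the wild types (log2 fold change 2.27, SE 0.60, edgeR adjusted p = 0.732). Wild type 2 lay between the mutants and wild type 1 for both Ccl7 and Ccl2.

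Fcrls, an Fc receptor-like scavenger protein found on resident macrophages and microglia of the mouse, stood at 171 and 123 scaled CPM in gated cells of the mutants, against 31.5 and 26.9 in the wild types. The fitted log2 fold change was 2.30 (SE 0.35, edgeR adjusted p = 0.1003), and DESeq2 called it (adjusted p = 0.00017). Over 17 alternatives its adjusted p reached 0.666, by edgeR with a gate of 10 UMIs. It had a UMI in 28.8% and 33.2% of gated cells of the mutants, against 8.07% and 17.9% in the wild types. Over the same thinning the expected shares were 14.8% and 14.7% in the mutants, against 3.51% and 6.03% in the wild types. In the T cell barcodes chosen for few C1q UMIs, Fcrls had a UMI in at most 1.62% of cells. Both mutants stood above both wild types on each of these measures, and in level the wild types were close to each other. Fcrls was named with the cells as a marker but was not part of the gate.

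The choice of all C1q-high cells used none of the 4 transcripts, but they include the gated cells and are no separate check. Ungated cells held little Ccl7, with 4.51 and 4.59 scaled CPM in the mutants, against 0.502 and 3.64 in the wild types. In all C1q-high cells both mutants stood above both wild types for Fcrls and Ccl7, as did 22.7% of all genes tested there. Fcrls stood at 115 and 90.6 scaled CPM in the mutants, against 15.4 and 16.3 in the wild types (log2 fold change 2.71, edgeR adjusted p = 0.069). Ccl7 stood at 154 and 77.2 scaled CPM in the mutants, against 2.31 and 10.9 in the wild types (log2 fold change 4.83, edgeR adjusted p = 0.0818). Both passed without the Ccl8-richest barcode of each library (adjusted p = 0.0259 for Fcrls and 0.0254 for Ccl7 by edgeR). Over 14 alternatives the adjusted p ranged from 5.14e-08 to 0.146 for Fcrls and from 2.83e-18 to 0.360 for Ccl7.

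The other genes of the highest rank were these. Socs3, a feedback inhibitor of cytokine signalling, stood at 117 and 52.0 scaled CPM in the mutants, against 18.1 and 17.9 in the wild types (log2 fold change 2.22, SE 0.44, edgeR adjusted p = 0.426). Olfml3, a secreted protein known from microglia of the mouse, stood at 48.9 and 43.5 scaled CPM in the mutants, against 21.2 and 17.9 in the wild types (log2 fold change 1.19, SE 0.32).

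Of the genes lower in mutants, Kctd16, a subunit of GABA-B receptor complexes in neurons, stood at 10.7 and 10.4 scaled CPM in gated cells of the mutants, against 47.2 and 69.5 in the wild types (log2 fold change -2.40, SE 0.32, edgeR adjusted p = 0.0622). DESeq2 called Kctd16 (adjusted p = 0.000563, within a range of 0.000264 to 0.273 over 17 alternatives). Ahnak, a large scaffold protein, stood at 30.1 and 24.5 scaled CPM in the mutants, against 64.9 and 71.7 in the wild types (log2 fold change -1.31, SE 0.29). Arhgap26 and Gpr141, an orphan receptor of myeloid cells, had log2 fold changes of -1.20 and -1.39. Slc27a2, a fatty acid transporter of the proximal tubule, had 26.3 and 8.67 scaled CPM in the mutants, against 52.3 and 87.4 in the wild types (log2 fold change -1.92), beside the tubule marker sums given above. The plot of levels by library shows these genes with the gate genes.

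**Figure D2:**
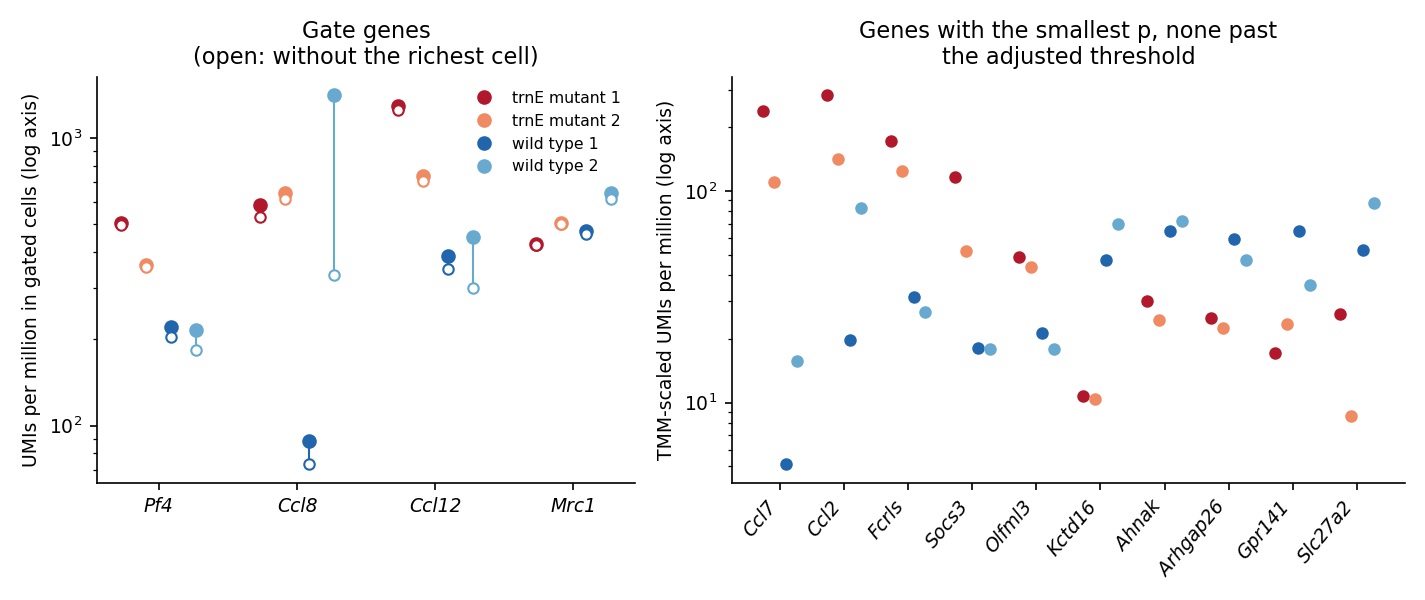
Left, plain CPM of the 4 gate genes in the summed gated cells of each library on a log axis, with open circles for the value without the single richest cell. Ccl8 in wild type 2 stands at 333 CPM without 1 cell and at 1406 CPM with it. Right, TMM-scaled CPM of the 10 genes with the smallest p on a log axis, with the mutants above the wild types for the first 5 and below them for the last 5.

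Gene lists of macrophage functions are described by how many members lay on each side, beside the same for all genes. Over all 12383 genes both mutants exceeded both wild types for 23.9% and lay below both for 21.8%. The median log2 fold change over all genes was -0.00, with 6181 genes positive. With library totals in place of TMM that median moved by -0.26, so values below are relative to TMM. Some genes that stood apart on this scale, among them H2-D1, Tubb5 and Atf4, overlapped without the TMM factors. No member of any list passed the threshold. The lists were drawn up with earlier results of these data known.

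Cell cycle genes had the highest median of the lists. Of 19 members 18 passed the filter on low counts, all 18 had a positive log2 fold change, and the median was 1.63. In 17 of them both mutants exceeded both wild types, as they did for 23.9% of all genes. Their summed level was 1146 and 710 scaled CPM in gated cells of the mutants, against 558 and 291 in the wild types. Tubb5, a tubulin, stood at 347 and 237 scaled CPM in the mutants, against 234 and 101 in the wild types. Hmgb2, a chromatin protein of dividing cells, stood at 279 and 187 scaled CPM in the mutants, against 145 and 71.7 in the wild types. Stmn1, which destabilises microtubules, stood at 160 and 56.6 scaled CPM in the mutants, against 34.2 and 26.9 in the wild types.

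The genes of mitosis itself were rare. Mki67, a protein of dividing cells picked here after its values were seen, had a UMI in 50 of 1622 and 37 of 1112 gated cells of the mutants, against 5 of 285 and 0 of 39 of the wild types. As shares these are 3.08% and 3.33% in the mutants, against 1.75% and 0% in the wild types, and at 39 cells a share of up to 7.69% would have gone unseen. In 1 random thinning to 2000 UMIs Mki67 was in 1.25% and 1.44% of gated cells of the mutants, against 0.707% and 0% in the wild types. A lower share of dividing cells in wild type 2 was thus not detectable at this depth.

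Genes of antigen presentation and of the interferon response mostly had positive values. Of 15 genes of MHC class I, 14 were positive with a median log2 fold change of 0.60. In 10 of them both mutants stood above both wild types, beside 23.9% of all genes. H2-D1 stood at 4189 and 4154 scaled CPM in the mutants, against 3639 and 1696 in the wild types. Of 10 class II genes, 7 were positive with a median of 0.60. Cd74, the invariant chain, stood at 58882 and 48774 scaled CPM in the mutants, against 50404 and 16107 in the wild types. Wild type 2 stood well below the other 3 libraries for Cd74, and the 2 mutants did not separate from wild type 1.

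Of 36 interferon-responsive genes, 32 were positive with a median log2 fold change of 0.54. In 18 of them both mutants stood above both wild types, beside 23.9% of all genes. Ifitm3, a membrane protein that blocks virus entry, stood at 2116 and 1432 scaled CPM in the mutants, against 1091 and 710 in the wild types. Ifi27l2a stood at 1598 and 937 scaled CPM in the mutants, against 782 and 623 in the wild types. The interferon-induced chemokine Cxcl9 overlapped, with 204 and 487 scaled CPM in the mutants, against 166 and 475 in the wild types.

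Of 23 genes of lipid handling and the lysosome, 20 were positive with a median of 0.47. Apoe, the lipid carrier that macrophages secrete, stood at 14351 and 16248 scaled CPM in the mutants, against 6692 and 7243 in the wild types (log2 fold change 1.13, SE 0.53, edgeR adjusted p = 0.732). Of 14 genes of iron and haem handling, 11 were positive with a median of 0.72. The ferritin heavy chain gene Fth1 stood at 15268 and 10370 scaled CPM in the mutants, against 8958 and 4835 in the wild types. For Apoe and Fth1 both mutants stood above both wild types.

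Of 15 chemokine ligands outside the gate, 13 were positive, with a median of 0.35 and 5 with both mutants above. Of 8 chemokine receptors 4 were positive, and Ccr2, the receptor for Ccl2, Ccl7 and Ccl12 in the mouse, stood at 283 and 233 scaled CPM in the mutants, against 276 and 399 in the wild types. Of 15 scavenger and efferocytosis receptors only 5 were positive, with a median of -0.36. Among them Axl, a receptor for dying cells, stood at 180 and 228 scaled CPM in the mutants, against 246 and 208 in the wild types. Of the scavenger receptors 2 had both mutants above both wild types and 3 had both below, beside 23.9% and 21.8% of all genes. No separation of the genotypes is read from these lists.

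Lists tied to mitochondria are given by the genome that encodes them. Of 36 nuclear subunits of respiratory complex I, 35 were positive with a median of 0.51. In 20 of them both mutants stood above both wild types, beside 23.9% of all genes. Their summed level was 7196 and 4242 scaled CPM in gated cells of the mutants, against 3911 and 3757 in the wild types. These sums were apart on the TMM scale only. Without the TMM factors, 0.960 for mutant 2 and 1.23 for wild type 2, wild type 2 stood above mutant 2 and the groups overlapped. All 11 nuclear subunits of complex IV were positive, with a median of 0.53, but 3 had both mutants above both wild types, a share near that of all genes. Their sums overlapped, at 6422 and 3742 scaled CPM in the mutants, against 3576 and 3744 in the wild types. Of the 13 mRNAs encoded by mitochondrial DNA, whose translation needs the mitochondrial transfer RNAs, 3 were positive, with a median of -0.18. In 0 of them both mutants stood above both wild types and in 2 both lay below, beside 23.9% and 21.8% of all genes. mt-Co1 stood at 3935 and 4864 scaled CPM in the mutants, against 4269 and 4683 in the wild types.

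The mitochondrial share of UMIs in gated cells was 2.18% and 3.13% in the mutants, against 2.81% and 4.62% in the wild types. Group means were 2.66 ± 0.677% in mutants and 3.71 ± 1.28% in wild types (SD, n = 2 each), and the two-sided exact permutation test gave p = 0.667. The groups overlapped, and the limit of 50% per barcode bounds the measure.

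Of 19 genes of the integrated stress response, 13 were positive with a median of 0.33. Atf4, its central transcription factor, was picked here after its values were seen and stood at 56.2 and 67.4 scaled CPM in the mutants, against 42.9 and 40.3 in the wild types (log2 fold change 0.56, edgeR adjusted p = 0.732). Of 15 glycolysis genes 12 were positive with a median of 0.36. Gapdh stood at 1398 and 987 scaled CPM in the mutants, against 839 and 341 in the wild types.

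The remaining lists lay between these, and 6181 of all 12383 genes were positive. Core macrophage genes had 17 of 20 positive and a median of 0.54. Heat shock genes had 11 of 13 positive and a median of 0.39, and immediate early genes 18 of 23 and 0.51. Among the 23 immediate early genes 2 had both mutants above both wild types, beside 23.9% of all genes. Alternative activation genes had 6 of 10 positive, growth factor and matrix genes 16 of 25, inflammatory genes 15 of 23, complement genes 9 of 15, and perivascular genes 9 of 15. Xist, the transcript of the inactive X chromosome, stood at 526 and 811 scaled CPM in the mutants, against 595 and 1006 in the wild types. The plot of lists shows each list's members.

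**Figure D3:**
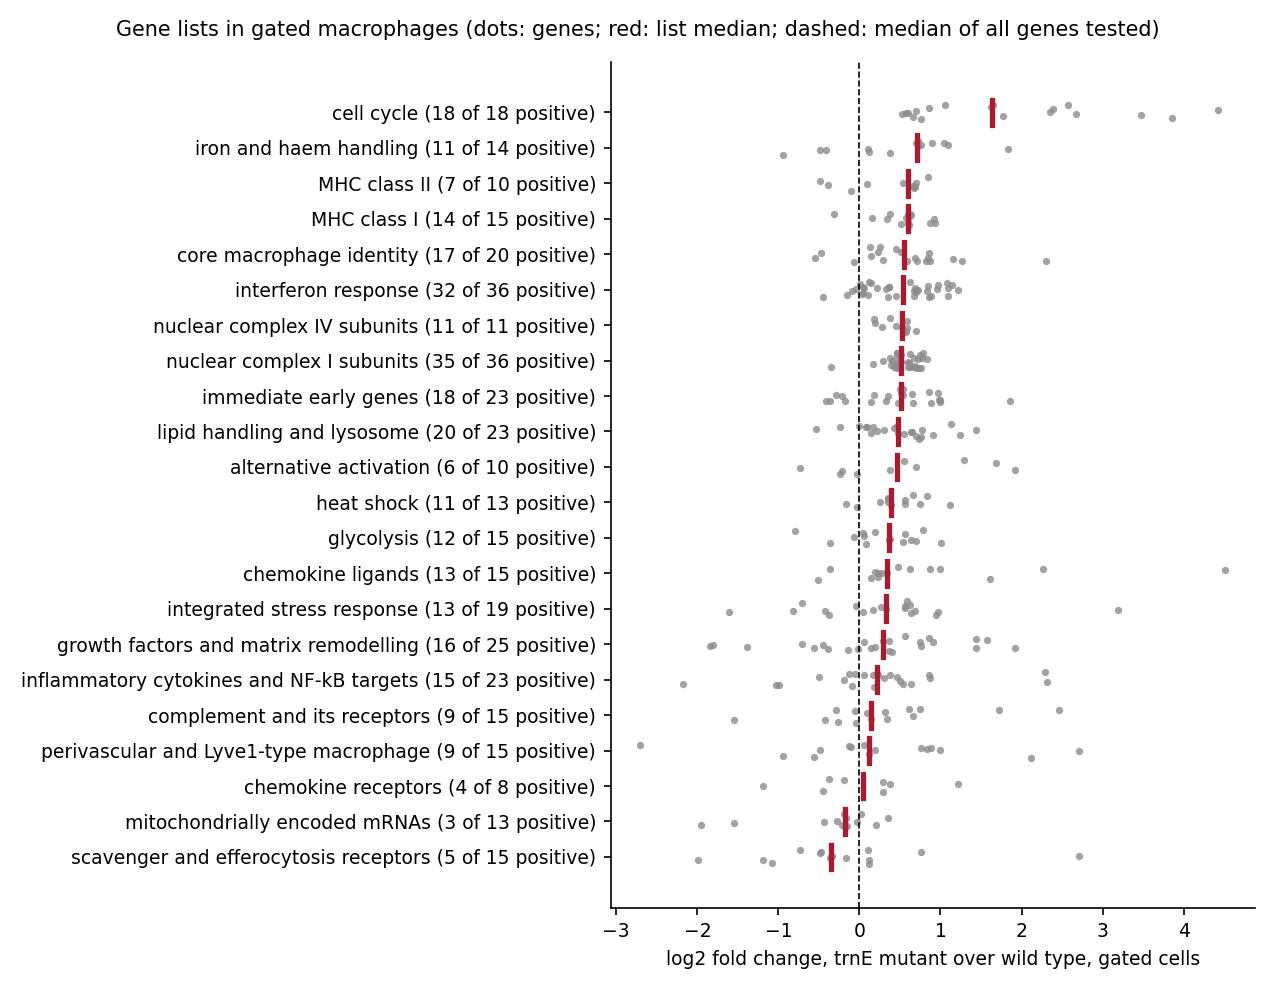
Log2 fold change of mutant over wild type in gated macrophages for each tested member of each gene list (dots), with the list median in red and the median of all 12383 genes as a dashed line. The cell cycle list has the highest median, 1.63, and the scavenger receptor list the lowest, -0.36. No dot passed the adjusted threshold.

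Within the gated cells, combinations of the 4 transcripts divided the cells further. Mrc1 together with Pf4, Ccl8 or Ccl12 was found in 73.2% and 72.1% of gated cells in the mutants, against 57.5% and 76.9% in the wild types. Mrc1 alone of the 4 was found in 10.1% and 16.3% in the mutants, against 29.5% and 20.5% in the wild types. The other gated cells, 16.7% and 11.6% in the mutants against 12.98% and 2.56% in the wild types, held chemokine transcripts without Mrc1. All 4 transcripts together were found in 14.4% and 13.7% of gated cells of the mutants, against 4.21% and 7.69% in the wild types. Cells with Mrc1 alone took a smaller share in each mutant than in either wild type, and wild type 2 gives its values from 8 such cells.

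Levels of several monocyte and macrophage genes differed between cells with Mrc1 alone and cells with Mrc1 and a gate chemokine. Values are plain CPM of the summed cells in the 3 libraries with at least 50 cells with Mrc1 alone. The 8 genes most raised in each direction were taken after the values were seen and are given with no test. Only genes with 1 sign in all 3 libraries could be taken, so their shared order comes from the choice and is no result. Cd209a, a lectin of monocyte-derived dendritic cells, stood at 190 and 39.0 CPM in Mrc1-only cells of the mutants, against 204 CPM in those of wild type 1. In the cells with both it stood at 22.9 and 7.09 CPM in the mutants, against 20.5 CPM in wild type 1. Ccr2, the monocyte chemokine receptor, stood at 580 and 510 CPM in Mrc1-only cells of the mutants and 469 CPM in those of wild type 1. In cells with both it stood at 200 and 164 CPM in the mutants and 197 CPM in wild type 1. S100a4 and S100a6, calcium-binding proteins of motile myeloid cells, were also among the 8 genes of this direction.

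The opposite was seen for Fcrls and the chemokines. Fcrls stood at 23.6 and 19.2 CPM in Mrc1-only cells of the mutants and 4.88 CPM in those of wild type 1, while cells with both held 181 and 147 CPM in the mutants and 47.4 CPM in wild type 1. Ccl2 stood at 24.3 and 18.6 CPM in Mrc1-only cells of the mutants and 4.88 CPM in those of wild type 1, while cells with both held 265 and 135 CPM in the mutants and 27.6 CPM in wild type 1. Cxcl10, Cxcl9, Cxcl13, Ccl7, F13a1 and Iigp1 were the other genes taken in this direction. In cells with both, Fcrls was still higher in each mutant than in wild type 1. Class II H2-Aa was close to equal in Mrc1-only cells and cells with both in the mutants, at 19211 and 18370 CPM beside 19195 and 18906 CPM.

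**Figure D4:**
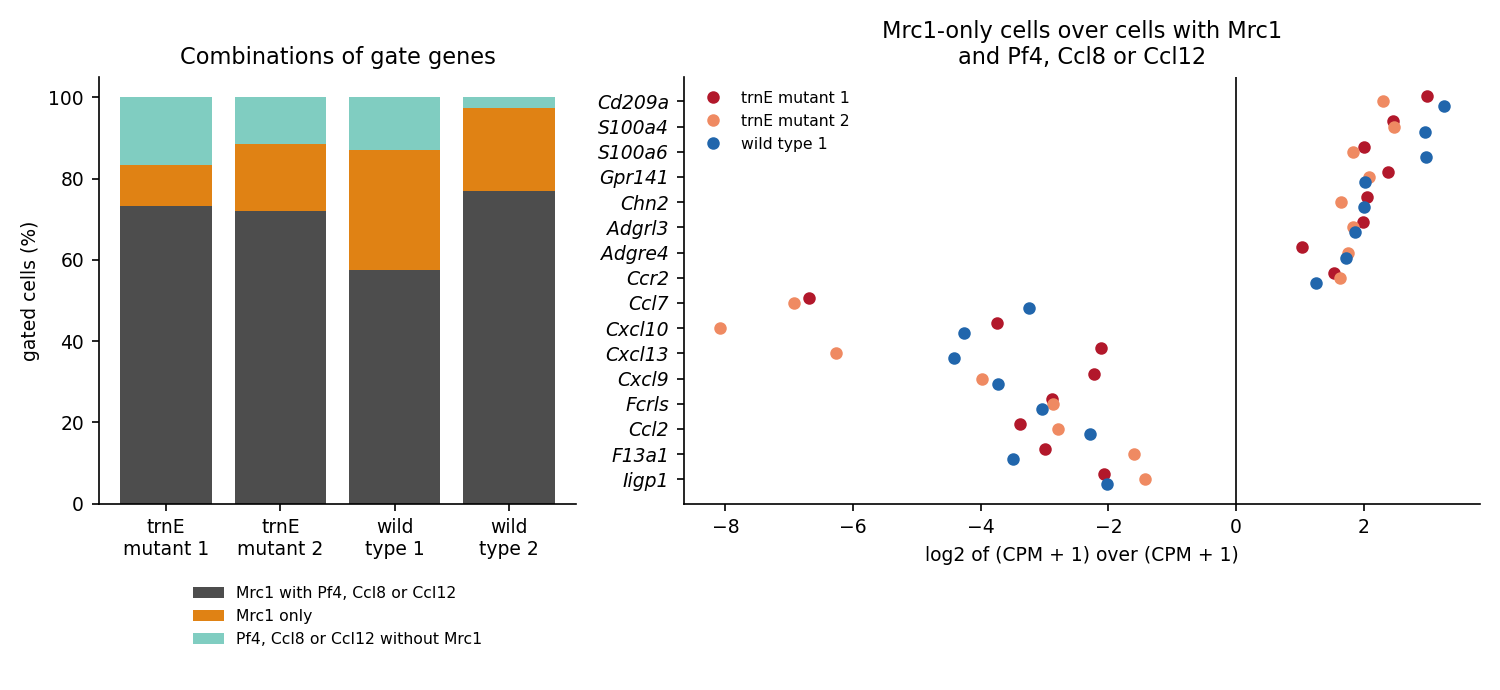
Left, gated cells of each library by combination of the 4 gate transcripts, as percentages that sum to 100%. Cells with Mrc1 alone made up 10.1% and 16.3% in the mutants, against 29.5% and 20.5% in the wild types. Right, log2 ratio of Mrc1-only cells over cells with Mrc1 and a gate chemokine, after adding 1 CPM to both, for 16 genes in the 3 libraries with enough cells. The genes were chosen to have 1 sign in those libraries.

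Levels per cell, thinned to 2000 UMIs, are described by Pearson's r of log-scaled values over 1602, 1109, 283 and 38 cells of mutant 1, mutant 2, wild type 1 and wild type 2. Cells of a library share their library and depth, so these values carry no test. The cells were also admitted on the sum of Pf4, Ccl8, Ccl12 and Mrc1. The gate thus bears on r of these genes, with each other and with other genes. Pf4 and Apoe had r of 0.42 and 0.38 in the mutants, against 0.40 and 0.47 in the wild types. Ccl8 and Fcrls had r of 0.40 and 0.29 in the mutants and 0.39 in wild type 1, but -0.11 over the 38 cells of wild type 2. Ccl12 and Ccl2 had r of 0.34 and 0.38 in the mutants, against 0.40 and 0.75 in the wild types. Ccl12 and Mrc1 had r between -0.19 and -0.05. Pf4 and Ccr2 had r of -0.24 and -0.21 in the mutants, against -0.21 and -0.40 in the wild types.

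Gated cells were set beside the ungated C1q-high cells of the same library, as a description of the contrast that the gate itself made. Among 4585 genes of at least 30 scaled CPM, 735 were higher in gated cells in all 4 libraries and 545 lower. With the gate genes and predicted genes left out of the ranking, the highest mean ratio belonged to Cxcl13, a B cell-drawing chemokine, followed by Ccl7 and Fcrls. Cxcl13 stood at 86.7, 62.7, 11.3 and 208 scaled CPM in gated cells of mutant 1, mutant 2, wild type 1 and wild type 2. In ungated cells it stood at 2.84, 0.219, 0 and 0. Stab1 and Msr1, scavenger receptors, had mean log2 ratios of 2.06 and 2.17. Bank1, a B cell scaffold gene, and Itsn1 were also in this group. Lower in gated cells were, in order of mean log2 ratio, Ghr (-1.78), Ccl5 (-1.74) and Mmp12, a macrophage elastase (-1.63). Spp2, Rgs1, Apbb2, Slc4a4 and Aadat followed. For Ccl5 the log2 ratio was -0.71 and -0.46 in the mutants, against -0.73 and -5.06 in the wild types. For Ghr it was -0.99 and -0.54 in the mutants, against -1.16 and -4.44 in the wild types. Wild type 2, the last value of each, has 20 ungated cells.

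Whether the mutant difference itself differed between gated and ungated cells was tested as an interaction of genotype and gate, with the library as a block. Of 12545 genes 6 passed edgeR's threshold, or 0.0478%, with 488 at an unadjusted p under 0.05 and 0 calls by DESeq2. Top2a and Birc5, genes of mitosis, and Stmn1 had a mutant difference more positive in gated cells, by 3.56, 4.31 and 1.99 on the log2 scale (edgeR adjusted p = 0.038 for each of the 6 genes). S100a9, a neutrophil and monocyte gene, and Slc5a12, a lactate transporter of the proximal tubule, differed by 5.58 and 3.21. Cd209a differed by -2.46, its mutant difference being more negative in gated cells.

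Top2a stood at 28.5 and 15.3 scaled CPM in gated cells of the mutants, against 4.28 and 0 in those of the wild types. In ungated cells it stood at 11.0 and 6.12 in the mutants, against 19.8 and 0 in the wild types. Stmn1 stood at 158 and 56.0 scaled CPM in gated cells of the mutants, against 33.9 and 26.6 in those of the wild types. In ungated cells it stood at 85.8 and 38.5 in the mutants, against 89.1 and 18.2 in the wild types. In mutants these genes of dividing cells were higher in gated than in ungated cells, and in wild type 1 the order was the other way.

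Ungated cells of wild type 2 number 20, so a count of 0 there says little. Ccl7 and Fcrls did not pass the interaction test, with differences of 2.32 (SE 1.29) and 0.41 (SE 0.51), both at edgeR adjusted p = 1. Without wild type 1, S100a9 turned to -1.47, and the number of interaction calls was 448 in place of 6.

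**Figure D5:**
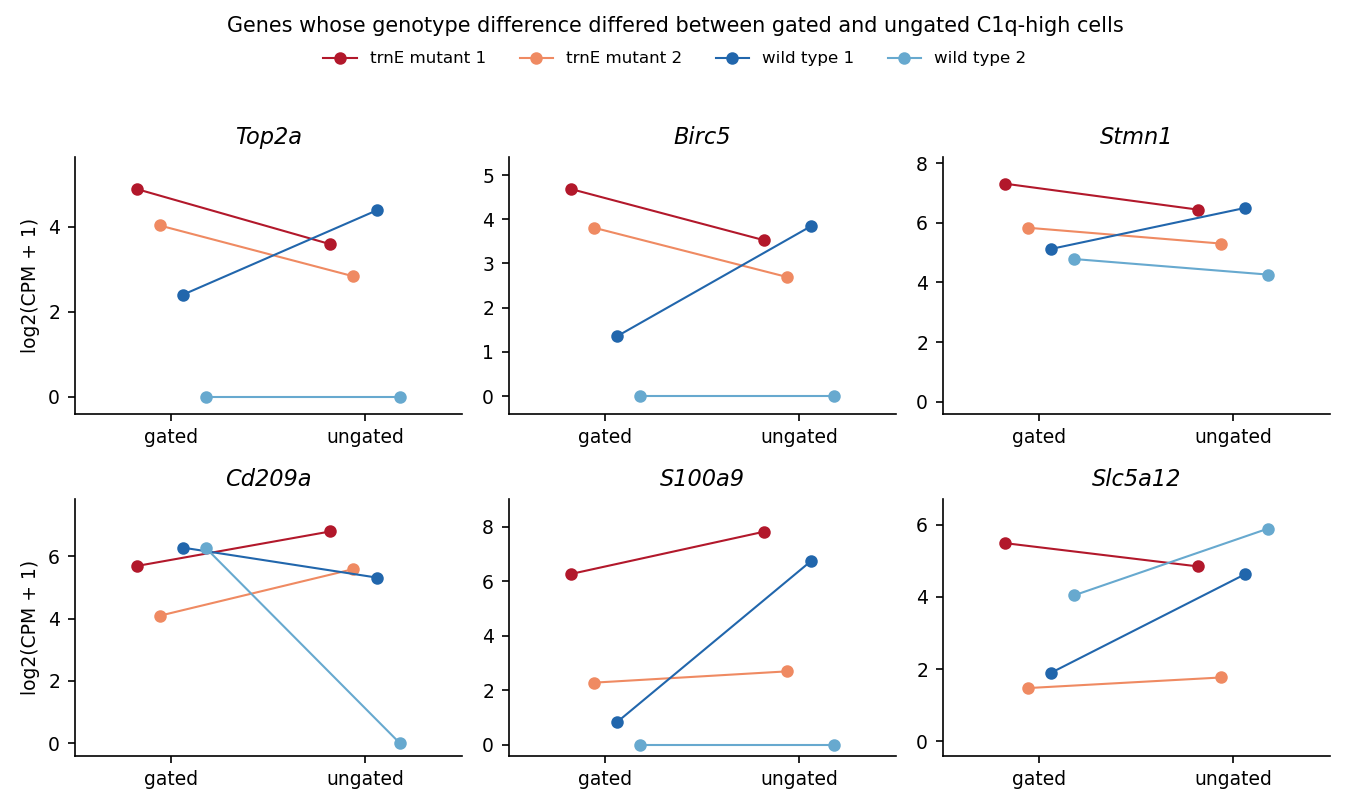
Log2 of TMM-scaled CPM + 1 in gated and ungated C1q-high cells of each library, 1 line per library, for the 6 genes that passed the interaction test. For Top2a, Birc5 and Stmn1 the mutant lines are higher in gated cells and the line of wild type 1 is higher in ungated cells. Points of wild type 2 rest on 39 gated and 20 ungated cells.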

How the data were processed

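Per the labels' protocols, kidneys were dissociated, live cells were sorted and 3′ libraries were made with the 10x Genomics kit. The authors deposited raw UMI counts per gene and barcode for 32285 genes, made with Cell Ranger 7.0.0 (mutants) and 7.1.0 (wild types) per the file headers, so version and genotype coincide. The mm10 build is per the submitters' processing notes. The labels do not say whether libraries came from separate litters or days, and p-values measure the spread between these 4 libraries.

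UMIs of gated, ungated and all C1q-high barcodes were summed per library. Genes with low sums were dropped by filterByExpr, and TMM factors entered edgeR's quasi-likelihood test (version 4.0.16 in R 4.3.3). The p-values were adjusted after Benjamini and Hochberg over all genes tested, and 0.05 was the limit for a call. The alternative tool was DESeq2 1.42.0. Shares of libraries were tested by exact permutation. The test was checked on simulated data with 200 changed genes, all taken from genes above a floor of summed UMIs. Counts were drawn at the trended dispersion, with no spread of its own for each gene. The shares found may thus be too high for the real data. It found 62% of 4-fold and 12% of 2-fold changes in gated cells, and 56% and 5% in all C1q-high cells. For the interaction it found 74% and 37%. False calls numbered 1 in gated cells, 3 in all C1q-high cells and 4 for the interaction. Most 2-fold changes were thus missed even in these simulated data. Doublets were called with Scrublet in scanpy 1.11.5 and kept. No correction for free RNA was applied.

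Members and lists were chosen with earlier results of these data known. Named genes are the gate genes and given markers, genes past the threshold (else the 5 with the smallest p per direction, of at least 30 CPM and without overlap), and the 3 most abundant members of each list. Aldoa, Ddit3, Clec7a, Mx1 and Mx2 were not used. Alternatives were other scaling, filters, gates and tools, a replicate block, and each library left out. Leaving out the Ccl8-richest barcode was added after seeing the data. Same-numbered libraries did not deviate together (r = -0.0286), and nothing in the labels ties them.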

Additional observations from a re-analysis of the deposited data

Results flagged for a closer look

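The genotype difference in 6 genes differed between gated and ungated C1q-high cells by the interaction test (edgeR, adjusted p = 0.038 each). The difference of log2 effects, gated minus ungated, was 3.21 for Slc5a12, 5.58 for S100a9, 1.99 for Stmn1, -2.46 for Cd209a, 3.56 for Top2a and 4.31 for Birc5. For S100a9, gated cells held 75.6 and 3.85 scaled CPM in the mutants, against 0.778 and 0 in the wild types, while ungated cells held 224 and 5.46 in the mutants, against 105 and 0 in the wild types. The value of S100a9 in mutant 1 was far above that of mutant 2 in both sets. Slc5a12 is a tubule gene, with 44.0 and 1.78 scaled CPM in gated cells of the mutants, against 2.72 and 15.5 in those of the wild types, and tubule RNA was not removed from these counts. For Cd209a, gated cells held 50.6 and 16.1 scaled CPM in the mutants, against 76.7 and 75.3 in the wild types, while ungated cells held 110 and 47.2 in the mutants, against 38.9 and 0 in the wild types. For Birc5, gated cells held 24.7 and 13.02 scaled CPM in the mutants, against 1.56 and 0 in the wild types.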

How the results depend on the processing

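Counts of calls moved with the processing, while the direction of the share among kept barcodes was the same under all its alternatives (difference of 6.01 to 13.8 percentage points). In gated cells, 0 calls became 4 with library totals, 29 without a filter, 7 with DESeq2, 2 with a gate of 10 UMIs and 20 to 62 with 1 library left out, where a lone library is assumed to vary like the rest. In C1q-high cells, 1 call became 3 with library totals, 102 without a filter, 18 with DESeq2, 0 without Scrublet calls, 5 without the Ccl8-richest barcodes and 23 to 212 with 1 library left out. The 6 interaction calls became 12 with library totals, 97 without a filter, 0 with DESeq2, 33 without Scrublet calls, 22 with a C1q limit of 40 UMIs, 36 with thinned counts, and 8 to 448 with 1 library left out (448 without wild type 1). The gated share among C1q-high cells ran from -6.17 (without wild type 1) to 27.9 percentage points with 1 library left out, and the interaction of S100a9 from -1.47 (without wild type 1) to 6.50. The replicate block by library number gave 0 calls in gated cells and 1 in C1q-high cells. The cause of these shifts was not tested. Depth limits wild type 2 most, with 39 gated cells.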
